A study of Saccharomyces cerevisiae with 8 samples.

Results

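HXT1 to HXT7 are the 7 hexose transporter genes that carry most glucose into growing cells of budding yeast, Saccharomyces cerevisiae. They were chosen by systematic name (YHR094C, YMR011W, YDR345C, YHR092C, YHR096C, YDR343C and YDR342C, in the order HXT1 to HXT7), and they are 7 of the 6713 open reading frames quantified in each library. The measurement was RNA-seq of rRNA-depleted total RNA from BY4741, a laboratory haploid strain, with 8 libraries in 4 groups of 2 biological replicates. Naive cells were wild type and untreated. Inductant 1 and inductant 2 were wild-type cells labelled [SMAUG+], from 2 independent inductions in which VTS1 was overexpressed from a plasmid for 48 h, after which the plasmid was lost and the cells were grown on for several generations. The 4th group, vts1∆, was untreated and carried a deletion of VTS1. All cultures (50 ml) were taken in mid-exponential phase at an OD600 of about 0.6, and no source used here names the growth medium or its sugar. Each inductant group stands for 1 induction event, so its 2 libraries show the spread between cultures and not between inductions.

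Glucose enters yeast by facilitated diffusion through the Hxt proteins, which differ in affinity. Hxt1 and Hxt3 are low-affinity carriers used when glucose is plentiful, Hxt2, Hxt4, Hxt6 and Hxt7 are carriers of higher affinity used when it is scarce, and Hxt5 is associated with slow growth. The membrane sensors Snf3 and Rgt2 act through the kinases Yck1 and Yck2 and the ubiquitin ligase subunit Grr1 to remove Mth1 and Std1, partners of the repressor Rgt1. The repressor Mig1 keeps several high-affinity genes low in high glucose, and the kinase Snf1 relieves this repression when glucose is scarce. Vts1 is an RNA-binding protein of the Smaug family that recognises short RNA hairpins and promotes removal of the poly(A) tail, and [SMAUG+] is a heritable, protein-based state of it.

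On build R64, HXT7, HXT6 and HXT3 lie in that order on the minus strand of chromosome IV, at chrIV:1154216-1155928, chrIV:1159608-1161320 and chrIV:1162957-1164660. HXT4, HXT1 and HXT5 lie on the minus strand of chromosome VIII, at chrVIII:287081-288811, chrVIII:290913-292625 and chrVIII:294669-296447. HXT2 lies alone at chrXIII:288079-289704 on the plus strand. None of the 7 overlapped another annotated gene, and the quantified lengths were coding lengths, so reads in untranslated regions were not counted.

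HXT6 and HXT7 are near-identical copies, which limits how far their values can be read separately. They differed at 3 of 1713 coding bases (T1632C, G1666A and T1677C, HXT6 base first, counted from 1 at the start codon). Of the 1683 words of 31 bases in each, 73 (4.34%) were found in no other coding sequence, against 77.2% for HXT3 and 99.6% for HXT2, the lowest and highest of the other members. The stretches that hold all 3 differences are shown 5′ to 3′ on the minus strand of R64, with the differing bases in capitals, because only reads over them tell the 2 genes apart within the coding sequence.
HXT6 chrIV:1159677-1159701: ggttccaccatcTagaagaggtgcc
HXT7 chrIV:1154285-1154309: ggttccaccatcCagaagaggtgcc
HXT6 chrIV:1159632-1159667: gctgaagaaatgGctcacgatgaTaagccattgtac
HXT7 chrIV:1154240-1154275: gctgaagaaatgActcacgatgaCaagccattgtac
The sum of HXT6 and HXT7 is therefore given with their fold changes. Other pairs of members shared 65.2% (HXT2 and HXT5) to 81.9% (HXT4 and HXT7) of aligned coding bases.

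Libraries held 18431474 to 27501966 estimated counts. VTS1 had 472 and 488 estimated counts in naive, 490 and 650 in inductant 1, 794 and 594 in inductant 2, and 0 and 2 in vts1∆, which matches the deletion label. Against naive, VTS1 was called higher in inductant 2, at 0.64 on the log2 scale (adjusted p = 0.0248, edgeR's quasi-likelihood test). In inductant 1 it was at 0.23 and was not called. The part of the VTS1 level in the HXT differences was not tested. The genes LEU2, MET17 and URA3, deleted in BY4741, were at 0 in all 8 libraries. The MATa markers STE2, BAR1 and AGA2 were present in all 8 (3894 to 5455, 2147 to 3443 and 75 to 187 estimated counts), and MFA1 and MFA2 were listed at 0. Of the MATalpha markers, MF(ALPHA)1 had 1 to 4 estimated counts, MF(ALPHA)2 30 to 85, STE3 93 to 130 and SAG1 391 to 567, and their summed TPM was 20.1 to 32.6. The summed TPM of the 5 MATa markers was 272 to 278 in naive, 284 to 326 in the inductants and 371 to 405 in vts1∆, and its part in the HXT differences was not tested. The 2 naive libraries differed most, with a chi-square per degree of freedom of 56.0 against 5.47 to 20.7 in the other groups.

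The 7 transcripts covered a wide range of levels in naive cells. Levels are given as TPM, which corrects for gene length. HXT3 was highest, at 1109 and 1282 TPM (ranks 187 and 168 of 6713), followed by HXT2 at 881 and 799.5 TPM and HXT7 at 507 and 611 TPM. HXT4 followed at 287 and 359.5 TPM, HXT6 at 154 and 156 TPM and HXT1 at 123 and 115 TPM. HXT5 was lowest, at 20.9 and 29.9 TPM (ranks 4212 and 3481). No 2 neighbours in this order overlapped between the naive libraries. The order changed elsewhere. HXT1 stood above HXT6 in every library outside naive, for example at 103 and 111 TPM against 57.3 and 76.6 TPM in inductant 1. In inductant 2, HXT7 (158 and 176 TPM) overlapped HXT4 (153 and 171 TPM). In vts1∆, HXT7 (397 and 410.0 TPM) overlapped HXT2 (382 and 408 TPM), and HXT6 (10.5 and 23.8 TPM) overlapped HXT5 (19.8 and 21.1 TPM).

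**Figure D1:**
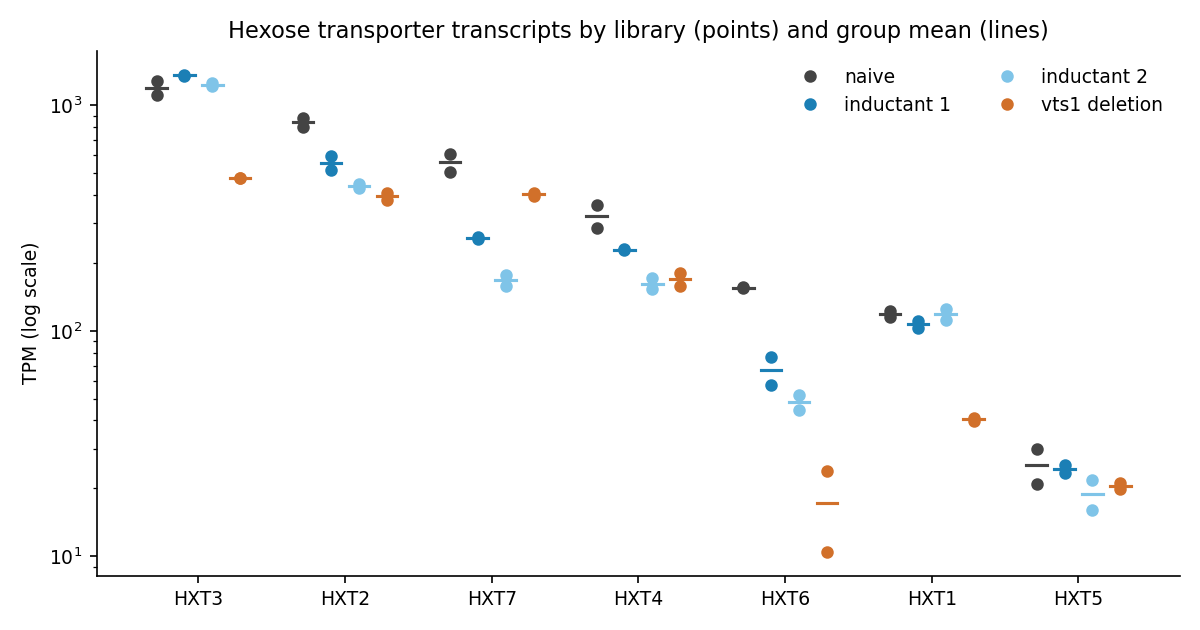
TPM on a log scale for each of the 7 transporters in the 4 groups, with a point for each of the 2 libraries and a line at the group mean, ordered by naive level. HXT1 and HXT3 stand lower in vts1∆ and near naive in the inductants, while HXT2, HXT4, HXT6 and HXT7 stand below naive in all other groups.

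The first comparison was of both inductants with naive cells. The inductant libraries come from 2 inductions, so each SE and p-value here measures the spread between cultures and not between inductions. In cells that had gone through VTS1 overexpression, 3 transporters of higher affinity fell, HXT7 most (2.82-fold), with HXT2 (1.79-fold) and HXT4 (1.76-fold). The low-affinity HXT1 and HXT3 and the slow-growth HXT5 did not pass the test, and HXT6 missed it at a fold change close to that of HXT7. Thus 3 of the 7 were called lower and 0 higher by edgeR's quasi-likelihood test with Benjamini-Hochberg adjustment (adjusted p under 0.05), where 5.6% of the 6230 genes tested were called lower and 2.97% higher (8.57% in all). The count of 0 higher was the same at an unadjusted p under 0.05, with DESeq2 and with limma on TPM. The median log2 fold change of the 7 was -0.81, against -0.01 over all genes tested.

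HXT7, a high-affinity carrier, was at 874 and 1019 CPM (library-size scaled counts, after TMM) in naive, 400.2 and 416 in inductant 1, and 267 and 287 in inductant 2. All 4 inductant libraries lay below both naive libraries, and those of inductant 2 below those of inductant 1. The fitted log2 fold change was -1.49 ± 0.07 (SE; adjusted p = 1.16e-06, edgeR). In bulk RNA, a lower level in every cell and fewer expressing cells cannot be told apart, here and for every member below.

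HXT6, its near copy, was at 266 and 261 CPM in naive, 89.4 and 122 in inductant 1, and 75.1 and 84.4 in inductant 2. These groups did not overlap either, and the log2 fold change was -1.52 ± 0.32, with an adjusted p of 0.0677 (edgeR). The large SE came with the vts1∆ pair, at 16.6 and 37.9 CPM, which shares the estimate of the spread: without vts1∆ replicate 1 or replicate 2 the adjusted p was 0.000326 or 0.000314, at -1.53 both times. The sum of HXT6 and HXT7 was 1139.9 and 1280.1 CPM in naive, 489.7 and 539 in inductant 1, and 342 and 371 in inductant 2. It fell by 1.50 on the log2 scale, with an SE of 0.07 and an adjusted p of 1.26e-06 (edgeR).

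HXT2, a high-affinity carrier induced at low glucose, was at 1432 and 1258 CPM in naive, 764 and 894 in inductant 1, and 712 and 656 in inductant 2. The inductant libraries all lay below naive, and the log2 fold change was -0.84 ± 0.08 (adjusted p = 0.000134, edgeR). HXT4, also induced at low glucose, was at 499.8 and 607 CPM in naive, 363 and 368 in inductant 1, and 261 and 280.5 in inductant 2. Again no inductant library reached a naive one, with a log2 fold change of -0.81 ± 0.08 (adjusted p = 0.000186, edgeR). The calls of HXT2, HXT4 and HXT7 held whichever of the 8 libraries was left out.

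HXT3, a low-affinity carrier and the most abundant of the 7 per length, was at 1898 and 2126 CPM in naive, 2099.5 and 2172 in inductant 1, and 2098 and 1959 in inductant 2. Inductant and naive libraries overlapped, and the log2 fold change was 0.05 ± 0.06 (adjusted p = 0.655, edgeR), or -0.04 without naive replicate 1. HXT1, the low-affinity carrier of high glucose, was at 212 and 192 CPM in naive, 161 and 177 in inductant 1, and 189 and 202 in inductant 2. These overlapped as well, with a log2 fold change of -0.15 ± 0.07 (adjusted p = 0.183, edgeR), which became -0.22 (adjusted p = 0.0458) without naive replicate 2.

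HXT5 was the least expressed member, at 37.7 and 52.1 CPM in naive, 38.2 and 42.2 in inductant 1, and 28.1 and 36.8 in inductant 2. The groups overlapped, and the log2 fold change of -0.32 ± 0.14 did not pass the test (adjusted p = 0.196, edgeR). The naive pair set this value: it was -0.53 (adjusted p = 0.034) without naive replicate 1 and -0.06 (adjusted p = 0.798) without naive replicate 2.

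**Figure D2:**
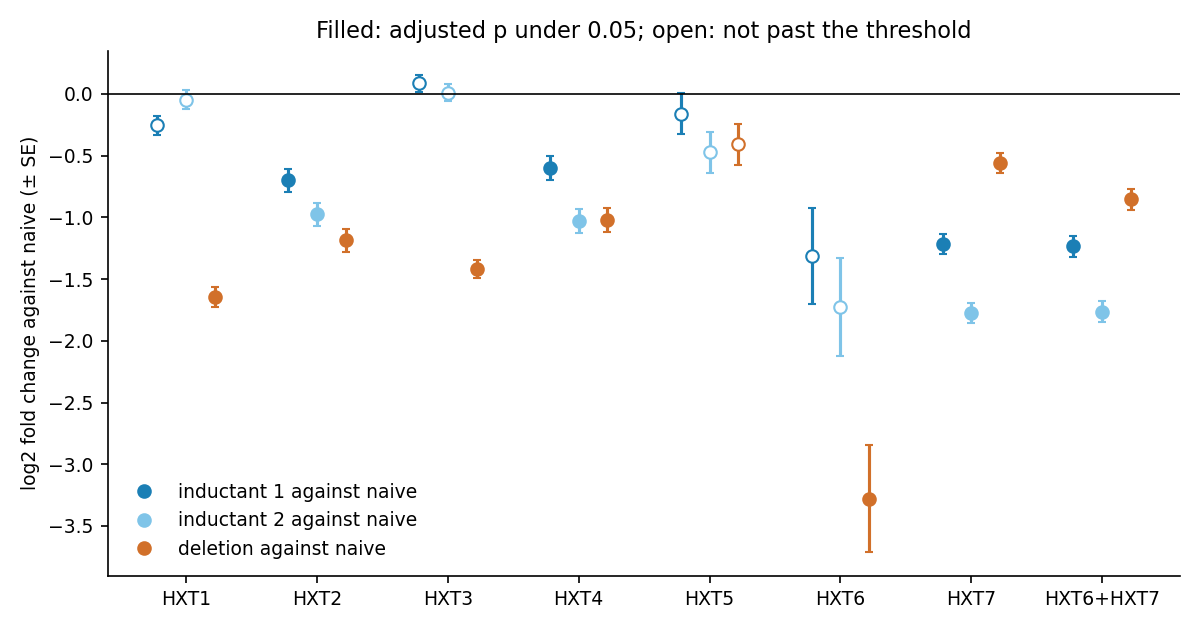
Fitted log2 fold change against naive (± SE, edgeR, 2 libraries a group) for each member and for the sum of HXT6 and HXT7, in inductant 1, inductant 2 and vts1∆. Filled points passed an adjusted p of 0.05; HXT1 and HXT3 are filled in vts1∆ and open in both inductants, and the 3 series share the same naive libraries.

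The deletion was then compared with naive cells. Loss of VTS1 came with a fall of 6 of the 7 transporters, both low-affinity genes included. HXT1 fell by 3.13-fold, HXT3 by 2.68-fold, HXT2 by 2.27-fold and HXT4 by 2.03-fold. The sum of HXT6 and HXT7 fell by 1.81-fold. HXT6 alone fell by 9.70-fold and HXT7 by 1.47-fold, values that rest on the split of their shared reads. In this comparison edgeR called 14.6% of the 6230 genes tested lower and 11.7% higher (26.3% in all), and the higher share of the calls was 44.5%, or 54.5% with upper-quartile scaling. The median log2 fold change of the 7 was -1.18. HXT5, at 32.8 and 35.0 CPM in vts1∆, was the exception.

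HXT1 was at 65.3 and 63.6 CPM in vts1∆, below all 6 other libraries. Its log2 fold change against naive was -1.65 ± 0.08 (adjusted p = 4.02e-07, edgeR). HXT3 was at 754 and 750.1 CPM, likewise below every other library, at -1.42 ± 0.07 (adjusted p = 4.47e-07, edgeR). These were the members with the smallest SE relative to their change in this comparison.

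HXT2 was at 572 and 612 CPM in vts1∆, below both naive libraries, with a log2 fold change of -1.18 ± 0.09 (adjusted p = 1.46e-05, edgeR). HXT4, at 255 and 289.9 CPM, also lay below naive, at -1.02 ± 0.10 (adjusted p = 5.33e-05, edgeR). HXT7, at 631 and 653 CPM, stood between naive and the inductants, at -0.56 ± 0.08 against naive (adjusted p = 0.000632, edgeR). The sum of HXT6 and HXT7, at 648 and 690.5 CPM, was at -0.85 ± 0.08 (adjusted p = 4.72e-05, edgeR).

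HXT6 had the largest fold change of the 7 and the least even replicates, at 16.6 and 37.9 CPM in vts1∆. Both lay below every other library, with a log2 fold change of -3.28 ± 0.43 (adjusted p = 0.00884, edgeR). The value was -2.79 without vts1∆ replicate 1 and -3.98 without vts1∆ replicate 2. HXT5 was at -0.41 ± 0.17 (adjusted p = 0.105, edgeR), and at -0.61 (adjusted p = 0.00921) without naive replicate 1, and -0.39 with a replicate block (adjusted p = 0.0212).

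The share of the HXT6 and HXT7 counts assigned to HXT6 differed in vts1∆. It was 23.3% and 20.4% in naive, 18.3% and 22.7% in inductant 1, and 22.0% and 22.7% in inductant 2. In vts1∆ it was 2.57% and 5.49%, below all 6 other libraries. The assignment rests on the few bases shown above and on the authors' model of shared reads, and errors in it were not tested.

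**Figure D3:**
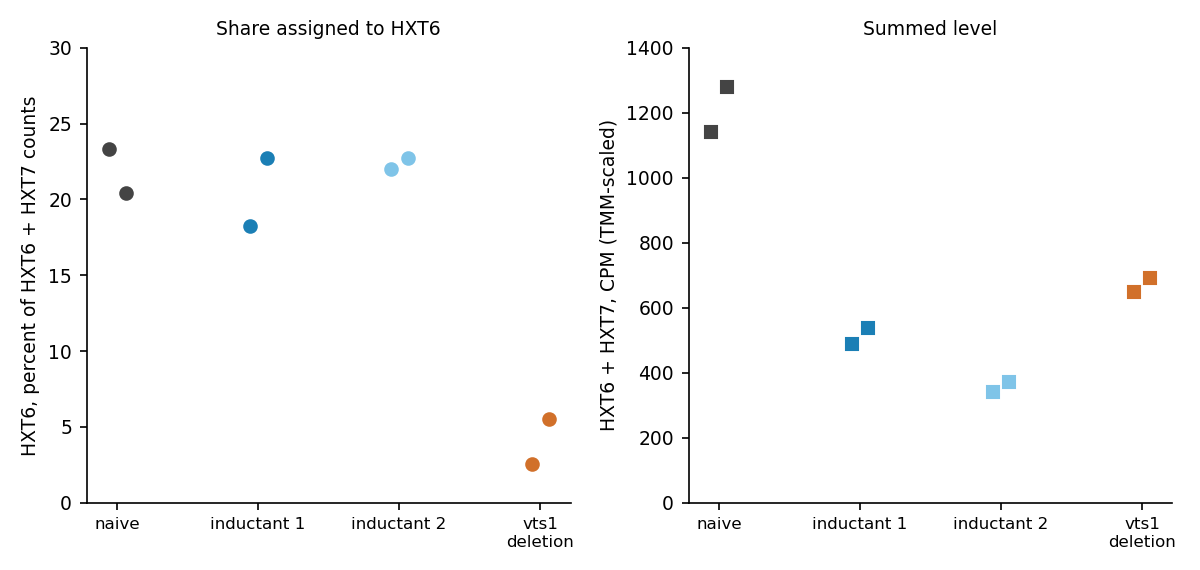
Left, the percentage of HXT6 plus HXT7 estimated counts assigned to HXT6 in each library; right, their summed CPM, with 2 points for each group. The share lies between 18.3% and 23.3% in naive and inductant libraries and at 2.57% and 5.49% in vts1∆, while the sum is lowest in inductant 2.

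The difference between the inductants and vts1∆ was tested directly, and 5 members differed: HXT1, HXT2, HXT3 and HXT6 were higher in the inductants and HXT7 lower. The separate values of HXT6 and HXT7 rest on the split of their shared reads, and their sum was lower in the inductants. Among the 6230 genes tested, 18.7% were called higher and 19% lower by edgeR (37.6% in all). The median of the 7 was 0.35, against -0.02 over all genes.

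The low-affinity genes differed most clearly. HXT1 was higher by a log2 fold change of 1.50 ± 0.07 (2.82-fold; adjusted p = 1.84e-07, edgeR) and HXT3 by 1.47 ± 0.07 (2.77-fold; adjusted p = 9.96e-08, edgeR). In both, all 4 inductant libraries lay above both vts1∆ libraries. HXT7 went the other way, at -0.93 ± 0.07 (adjusted p = 3.65e-06, edgeR), and so did the sum of HXT6 and HXT7, at -0.64 ± 0.07 (adjusted p = 5.9e-05, edgeR).

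HXT2 was at 0.35 ± 0.08 (adjusted p = 0.00696, edgeR), a call lost without vts1∆ replicate 1 (0.29, adjusted p = 0.113). HXT6 was at 1.76 ± 0.38 (adjusted p = 0.0262, edgeR), but its call was lost without inductant 1 replicate 2, either inductant 2 replicate or either naive replicate (adjusted p up to 0.0787), and in a fit of the compared groups alone (0.0544). Its value was 1.26 and 2.45 without vts1∆ replicate 1 and replicate 2. HXT4 (0.21 ± 0.08, adjusted p = 0.0754, edgeR) and HXT5 (0.09 ± 0.15, adjusted p = 0.659, edgeR) did not pass. HXT4 passed, at 0.20 to 0.22, with DESeq2 (adjusted p = 0.0467), in the compared groups alone (0.0132), without naive replicate 1 (0.019) or replicate 2 (0.0136), and with a replicate block (0.023).

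Each induction taken alone showed the same 3 members called lower, HXT2, HXT4 and HXT7. Over all genes, edgeR called 3.19% lower and 1.2% higher in inductant 1 (4.4% in all), and 5.79% lower and 3.24% higher in inductant 2 (9.04% in all). Because both used the same naive libraries, their values are given side by side and are not independent. HXT7 was at -1.21 ± 0.08 in inductant 1 (adjusted p = 8.22e-05, edgeR) and -1.77 ± 0.08 in inductant 2 (adjusted p = 1.75e-06, edgeR). HXT2 was at -0.70 ± 0.09 (adjusted p = 0.00407) and -0.98 ± 0.09 (adjusted p = 0.000136, edgeR), and HXT4 at -0.60 ± 0.10 (adjusted p = 0.00905) and -1.03 ± 0.10 (adjusted p = 0.000136, edgeR). HXT6 was at -1.31 ± 0.39 (adjusted p = 0.16) and -1.72 ± 0.40 (adjusted p = 0.0825, edgeR). The sum of HXT6 and HXT7 was at -1.23 ± 0.08 (adjusted p = 7.75e-05) and -1.76 ± 0.08 (adjusted p = 2.1e-06, edgeR). HXT6 passed in both with DESeq2 (adjusted p = 0.0326 and 0.00158), in the compared groups alone (0.00359 and 0.000663) and without either vts1∆ replicate (at most 0.00709 and 0.000393), and in inductant 2 with limma on TPM (0.0364 and 0.0408). In inductant 1 alone, the call of HXT2 was lost without inductant 1 replicate 1 (-0.59, adjusted p = 0.0626), and that of HXT4 without inductant 1 replicate 1 (adjusted p = 0.117) or replicate 2 (adjusted p = 0.0843). Both were also lost with limma on TPM (adjusted p = 0.0532 and 0.0813 with a pseudocount of 1).

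The direct test between the inductions called 1 of the 7, HXT7, lower in inductant 2, where 0.401% of all genes were called lower and 0.0482% higher (0.449% in all), and the higher share of the calls was 10.7%, or 25% with upper-quartile scaling. HXT7 differed by -0.56 ± 0.08 on the log2 scale (1.48-fold; adjusted p = 0.0227, edgeR) and the sum of HXT6 and HXT7 by -0.53 ± 0.08 (adjusted p = 0.0308, edgeR). Both inductant 2 libraries lay below both inductant 1 libraries. Leaving out inductant 1 replicate 1, inductant 1 replicate 2, inductant 2 replicate 1 or either vts1∆ replicate ended the HXT7 call (adjusted p up to 0.264), and so did limma on TPM (adjusted p = 0.127 with a pseudocount of 1). HXT4 was at -0.43 ± 0.10 (adjusted p = 0.0781, edgeR) and HXT2 at -0.28 ± 0.09 (adjusted p = 0.188, edgeR), and neither passed. The HXT4 difference did pass, at -0.43 to -0.44, with DESeq2 (adjusted p = 0.00266), in the compared groups alone (0.0145), without naive replicate 1 (0.00553) or replicate 2 (0.00682), and with a replicate block (0.0124).

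TPM values can be added across genes, and the 7 transporters together held 3083 and 3353 TPM in naive, 2541 and 2662 in inductant 1, 2185 in both libraries of inductant 2, and 1485 and 1556 in vts1∆. The groups did not overlap. The mean was 2393 TPM in the 4 inductant libraries and 3218 TPM in naive, a log2 difference of -0.43. The exact two-sided permutation p was 0.0667, the smallest that 4 libraries against 2 allow. This test treats the 4 libraries as exchangeable although they come from 2 inductions, so it does not measure the spread between inductions.

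The make-up of the pool differed as well as its size. The low-affinity genes HXT1 and HXT3 together held 40.0% and 41.7% of it in naive, 57.3% and 55.5% in inductant 1, 62.5% and 61.2% in inductant 2, and 34.9% and 33.0% in vts1∆. In absolute terms their summed level was 1232 and 1397 TPM in naive, 1337 to 1479 TPM in the inductants, which overlapped naive, and 518 and 514 TPM in vts1∆. HXT2, HXT4, HXT6 and HXT7 together held 1830.0 and 1926 TPM in naive, 804 to 1158 TPM in the inductants and 948 and 1021 TPM in vts1∆. The inductant libraries were thus below naive in the second sum and not in the first, and the vts1∆ libraries in both.

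**Figure D4:**
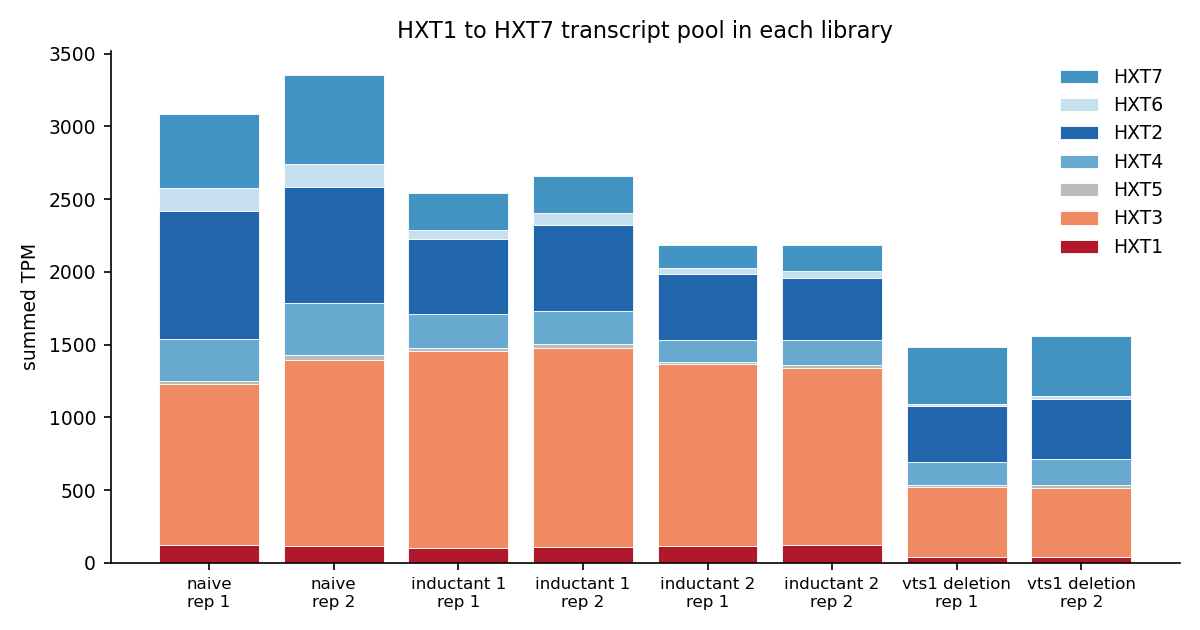
Summed TPM of HXT1 to HXT7 in each of the 8 libraries, as bars from 0 divided by gene, with low-affinity genes in red and orange, those of higher affinity in blue and HXT5 in grey. The red and orange part is 1232 and 1397 TPM in naive, 1337 to 1479 TPM in the inductants and 518 and 514 TPM in vts1∆.

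Other genes of hexose uptake and signalling were read from the same fit, in lists chosen with earlier results of these data known. Of 51 listed genes, 49 were tested; in the inductants 11 were called lower and 0 higher (22.4% called, against 8.57% of all genes), and in vts1∆ 14 lower and 1 higher (30.6% against 26.3%). The medians were -0.15 and -0.13. The 10 other hexose transporter genes were weakly expressed: 8 were tested, and 0 were called in the inductants by edgeR, DESeq2 or limma, also at an unadjusted p under 0.05. In vts1∆, HXT10 was called lower (-2.05 ± 0.48, adjusted p = 0.0103, edgeR) on 7 to 51 estimated counts per library, a call lost without vts1∆ replicate 2 (adjusted p = 0.0943) and with limma on TPM (0.124 with a pseudocount of 1).

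Among 8 genes of the sensors and the Rgt1 pathway, 1 was called lower in the inductants and 4 in vts1∆. The shares called lower over all genes tested were 5.6% and 14.6%. MTH1, the Rgt1 partner that is degraded in high glucose, was at 149.6 and 194 CPM in naive, 113 and 139 in inductant 1, 70.8 and 80.1 in inductant 2, and 76.6 and 82.8 in vts1∆. It lay below naive in all 6 other libraries, by -0.82 ± 0.12 in the inductants (adjusted p = 0.00503) and -1.11 ± 0.14 in vts1∆ (adjusted p = 0.00104, edgeR). The others called in vts1∆ were YCK1 (-0.35), SNF3 (-0.33) and YCK2 (-0.23), and each call was lost without vts1∆ replicate 2 and with limma on TPM. Those of SNF3 and YCK2 were also lost without vts1∆ replicate 1, and that of SNF3 without either naive replicate.

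Among 15 genes of the Snf1 and Mig1 pathway, 3 were called lower in the inductants, and 1 lower and 1 higher in vts1∆. The shares over all genes were 5.6% lower in the inductants, and 14.6% lower and 11.7% higher in vts1∆. MIG3, a repressor related to Mig1, was at 21.9 and 22.5 CPM in naive, 13.9 to 18.3 in the 4 inductant libraries, and 7.25 and 7.2 in vts1∆. It fell by 1.62 on the log2 scale in vts1∆ (adjusted p = 3.56e-05, edgeR), while its inductant call at -0.46 (adjusted p = 0.0357, edgeR) was lost in 7 of the 8 fits that left out a library, all but that without inductant 2 replicate 2. MIG1, the repressor itself, was at -0.37 ± 0.07 in the inductants (adjusted p = 0.00773, edgeR). With limma on TPM, 0 of the 15 were called in the inductants. SIP2, a subunit of the Snf1 complex, was at -0.34 in the inductants, a call lost with DESeq2 and in 6 of the 8 fits that left out a library, all but those without inductant 2 replicate 2 or naive replicate 2. ELM1, a kinase that activates Snf1, was at 0.39 in vts1∆, a call lost without either vts1∆ replicate.

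Of the 4 hexose kinase genes, 3 were called lower in each comparison, against 5.6% of all genes in the inductants and 14.6% in vts1∆. EMI2, a relative of the glucokinase gene, fell by 1.03 in the inductants (adjusted p = 0.000427) and by 1.49 in vts1∆ (adjusted p = 6.08e-05, edgeR). HXK1, hexokinase 1, fell by 0.93 (adjusted p = 0.000586) and by 0.65 (adjusted p = 0.00385, edgeR). HXK2, the main hexokinase in high glucose, fell in vts1∆ by 1.16 ± 0.07 (adjusted p = 1.49e-06, edgeR), from 2405 and 2599 CPM in naive to 1078 and 1155, and its inductant libraries, at 2408 to 2579 CPM, lay within the naive range. GLK1, glucokinase, was at -0.48 in the inductants, a call lost without either inductant 1 replicate or without naive replicate 2, and with limma on TPM.

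Genes repressed by glucose mark sugar depletion at harvest. Over all genes, edgeR called 5.6% lower and 2.97% higher in the inductants, and 14.6% lower and 11.7% higher in vts1∆. Of 14 glucose-repressed genes, 4 were called lower in the inductants and 5 in vts1∆. The count called higher was 0 (also at an unadjusted p under 0.05, and with DESeq2 and limma). Those called lower in the inductants were CAT8 (-0.34), ICL1 (-0.34), SUC2 (-0.31) and MDH2 (-0.27). Only SUC2, invertase, kept its call whichever library was left out. The calls of CAT8, ICL1 and MDH2 were each lost in 6 of the 8 such fits, the fit without inductant 1 replicate 1 among them. With limma on TPM, 0 of the 14 were called in the inductants and 2 in vts1∆. With edgeR in vts1∆ the largest were the lactate permease gene JEN1 (-1.07), POX1 (-0.91, lost without vts1∆ replicate 1), SUC2 (-0.82) and CAT8 (-0.53). Their summed TPM was 545 and 671 in naive, 576 and 605 in inductant 1, 465 and 496 in inductant 2, and 494 and 489 in vts1∆. The part of sugar level at harvest in the HXT differences was not tested.

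The 800 bases before each start codon were searched on both strands for 4 fixed motifs, and the 68 matches shared no base with one another. No window was cut at a neighbouring gene. That of HXT4 runs into AHT1 (chrVIII:289142-289690) and that of HXT6 into YDR344C (chrIV:1162006-1162449), and matches within those coordinates lie inside those genes. The Rgt1 motif CGGANNA had 6 matches upstream of HXT1, 3 of HXT2, 8 of HXT3, 3 of HXT4, 4 of HXT5, 1 of HXT6 and 2 of HXT7. Of 5997 yeast promoters of that length, 58.3% held at least 1 match, 0.183% held 6 or more and 0.0167% held 8 or more. HXT3 and HXT1 had the most. The 8 matches upstream of HXT3 are shown 5′ to 3′ on the gene's strand (minus, R64), from the farthest to the nearest, with the match in capitals and its coordinates. A match on the opposite strand reads as the reverse complement.
HXT3 chrIV:1165295-1165301: atgagctattcgCGGAACAttctagctcgt
HXT3 chrIV:1165192-1165198: aggctcttttcaCGGAGAAattcgggagtg
HXT3 chrIV:1165170-1165176: cgggagtgttttTTTTCCGtgcgcattttc
HXT3 chrIV:1165096-1165102: ctgtcacgtagtTTTTCCGgattcgtccgg
HXT3 chrIV:1165086-1165092: gtttttccggatTCGTCCGgctcatataat
HXT3 chrIV:1165055-1165061: ccgcaataaacaCGGAATAtctcgttccgc
HXT3 chrIV:1165014-1165020: aactctcggtcgCGGATTAtcacagagaaa
HXT3 chrIV:1164973-1164979: aatttttccagaTTTTCCGctttccccgat

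The Mig1 motif, searched as GGGG preceded by CC, CT, GC or GT, had 2 matches upstream of HXT1, 4 of HXT2, 2 of HXT3, 4 of HXT4, 1 of HXT5, 3 of HXT6 and 2 of HXT7. At least 1 match was held by 35.8% of promoters and 4 or more by 0.484%. HXT2 (plus strand) and HXT4 (minus strand) had the most, and their matches are shown in the same way.
HXT2 chrXIII:287312-287317: aaagaaaaagaaCCGGGGatgaataataa
HXT2 chrXIII:287575-287580: cctcatagacagCCCCGCagcttcacttt
HXT2 chrXIII:287658-287663: atccggagaaaaGCGGGGtcttttaactc
HXT2 chrXIII:287918-287923: aaacctagcaacCCCCACcaaacttgtca
HXT4 chrVIII:289304-289309: ttttcccaccccCCCCGGttttttttcca
HXT4 chrVIII:289272-289277: ggccccatattcCCCCGCctgcaggaaaa
HXT4 chrVIII:289056-289061: aagtttatgaagGTGGGGtggtaagaaaa
HXT4 chrVIII:288992-288997: aaagcttcaacaCTGGGGaatgaataata

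The stress motif AGGGG of Msn2 and Msn4 had 4 matches upstream of HXT6 and 4 of HXT7, 2 of HXT5, 1 each of HXT1, HXT3 and HXT4 and 0 of HXT2; 48.2% of promoters held at least 1 and 1.37% held 4 or more. CCAAT, the motif of the HAP complex, had 0 matches (HXT2) to 3 (HXT6) and was held by 81.6% of promoters. The promoters of HXT6 and HXT7 were identical over the 84 bases nearest the start codon. Compared position by position without an alignment, they were unlike at 529 of 800 positions. An insertion or deletion would raise that count, so it does not measure how far the 2 promoters differ. A match describes letters only, and binding was not measured.

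**Figure D5:**
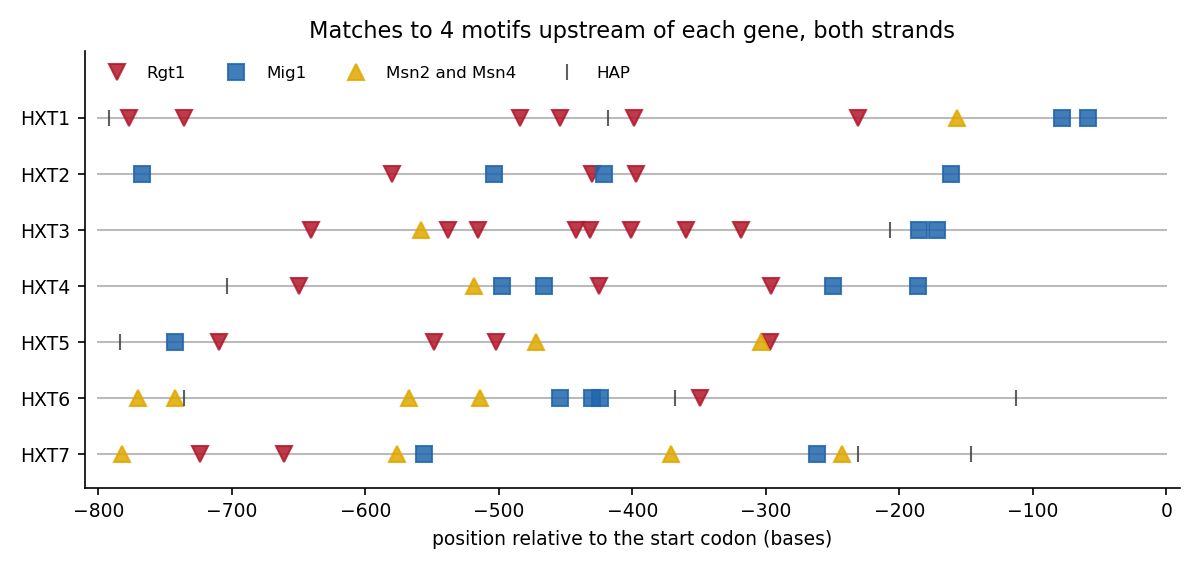
Positions of matches to the Rgt1, Mig1, Msn2 and Msn4, and HAP motifs in the 800 bases before the start codon of each gene, on both strands, with the start codon at 0. Rgt1 matches are most frequent upstream of HXT3 (8) and HXT1 (6), and Mig1 matches upstream of HXT2 and HXT4 (4 each).

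Smaug proteins bind hairpins with a CNGG loop, so the coding sequences were searched for a loop of CNGG plus 0 to 3 bases closed by 5 Watson-Crick pairs. HXT1 had 1, and the other 6 members had 0. Such a hairpin was held by 7.01% of 6002 coding sequences and by 9.88% of the 324 with a length between 1626 and 1779 bases, the range of the members. It is shown on the minus strand of R64 with the loop in capitals.
HXT1 chrVIII:291802-291815: gaagcCAGGgcttc
Untranslated regions were not searched and binding was not measured. The part of this hairpin in the HXT1 differences was not tested.

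Likeness to other genes was measured as the root mean square difference of log2 CPM, centred per gene, over the 8 libraries, for the 6 members whose group means spanned at least 1. Among the members themselves HXT2 and HXT4 (0.16) and HXT1 and HXT3 (0.16) were closest, and HXT6 and HXT7 (1.25) were farthest apart. The value for HXT6 and HXT7 rests on the split of their shared reads. The genes nearest HXT1 were LEU1 (0.07), PHO12 (0.08) and BAT1 (0.14), and those nearest HXT3 were QDR2 (0.13), HXK2 (0.14) and BAT1 (0.14). HXT2 was nearest to YOR019W (0.08), PRM5 (0.10) and TDA1 (0.12), and HXT4 to YLR177W (0.09), KIN82 (0.09) and MRK1 (0.10). HXT7 was nearest to GPH1 (0.11), YPL185W (0.19) and GPX1 (0.20). HXT6 had no neighbour as close, the nearest being RGI1 (YER067W, 0.25), YER066C-A (0.28) and YER067C-A (0.55). By their systematic names these genes lie close together on a chromosome, so they may not be separate likenesses. The HXT6 profile itself rests on the split of reads shared with HXT7. HXT5 spanned 0.46 and was not matched.

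Of 6 tested genes beside the transporters on the chromosome, 1 was called in the inductants and 2 in vts1∆, against 8.57% and 26.3% of all genes. YDR344C, between HXT6 and HXT3, was at 9.57 to 14.5 TPM and did not pass the test in the inductants (0.11, adjusted p = 0.778, edgeR) or in vts1∆ (-0.39, adjusted p = 0.267, edgeR). AHT1, between HXT4 and HXT1, was at 1.83 to 4.96 TPM and passed in neither. PAL2, upstream of HXT5, fell in both, at -0.73 ± 0.08 in the inductants (adjusted p = 0.000451) and -0.72 ± 0.10 in vts1∆ (adjusted p = 0.000535, edgeR), where HXT5 itself did not pass. YDR341C, beside HXT7, was at 0.10 ± 0.06 in the inductants (adjusted p = 0.291) and fell in vts1∆, at -0.41 ± 0.06 (adjusted p = 0.00109, edgeR). MSR1, beside HXT4, was at 0.01 and 0.26 (adjusted p = 0.972 and 0.148) and CLU1, beside HXT2, at -0.02 and 0.08 (adjusted p = 0.855 and 0.47, edgeR), and neither passed.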

How the data were processed

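Per the submitters' processing notes, the authors quantified each library with kallisto on build R64. No source used here gives its version, the read layout or the use of strand. Per the file headers, the authors deposited an estimated count and a TPM for each of 6713 open reading frames. The estimated counts deposited by the authors need not be whole, and 83.2% to 84.1% were whole within 1e-06. The TPM values deposited by the authors come from the same assignment of shared reads. Nearly all row lengths (99.97%) were multiples of 3, which are coding lengths without UTRs.

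Estimated counts were rounded to whole numbers, scaled by TMM (factors 0.946 to 1.09) and tested under R 4.3.3 by edgeR 4.0.16 (robust quasi-likelihood test, 1 mean per group, all 8 libraries, no covariate, 4 residual degrees of freedom). The 6230 genes that passed a filter on low counts by group, all 7 members among them, were adjusted together by Benjamini-Hochberg at 0.05. HXT6 and HXT7 were also replaced by 1 summed row. The procedure was tested on simulated data. P-values measure the spread between cultures of 1 strain. A count of 0 allows up to 3 counts, or 0.109 to 0.163 CPM per library, which covers counting error only.

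Replicate numbers came from the sample titles. The titles do not say whether these numbers pair samples. Between groups, replicate differences correlated at -0.11 to 0.11 over all genes tested, which cannot show whether some cultures were handled together. Alternatives were other scalings and filters, DESeq2 1.42.0, limma 3.58.1 on log2(TPM + 1) or log2(TPM + 0.1), a replicate block, the compared groups alone, and each library left out. Sequences and coordinates were read from the RefSeq R64 genome and annotation, which named 6026 rows, and coding sequences were aligned with MAFFT 7.526. The protein comparison listed in the design was not made. Members and gene lists were chosen with earlier results of these data known. Besides the 7 members, the text names the genes called with the largest change in each list (at most 4 per list and comparison), the 3 genes most like each member, VTS1, the markers and the genes beside the members.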

Additional observations from a re-analysis of the deposited data

Results flagged for a closer look

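In the fit of all 8 libraries HXT7 differed between the 2 inductions, with a log2 fold change of -0.561 in inductant 2 against inductant 1, tested directly with edgeR's quasi-likelihood test (adjusted p = 0.0227). The sum of HXT6 and HXT7 differed in the same comparison, at -0.529 (adjusted p = 0.0308, edgeR). Both were singled out because 2 groups made by the same treatment differed in a test of the difference itself, and the cause was not tested. Each call was lost in 7 of 17 alternatives, which were 5 of the 8 fits that left out a library (adjusted p up to 0.264 for HXT7 and 0.341 for the sum) and both limma fits on TPM.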

How the results depend on the processing

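Of 816 alternative values for 48 tested member results, 743 kept direction and side of the threshold, 28 lost the call, 33 gained one and 12 reversed, all in results that were not called. The reversed ones were HXT3 in the inductants (-0.0352 without naive replicate 1, highest 0.133), HXT5, inductants against vts1∆ (-0.029 without inductant 2 replicate 2, highest 0.173), HXT5 in inductant 1 (-0.37 to 0.0969, the latter without naive replicate 2), HXT1 in inductant 2 (-0.119 to 0.018, the latter without naive replicate 1) and HXT3 in inductant 2 (-0.00529 with no filter, -0.0033 with a 50-count filter, and -0.0787 to 0.0956 on leaving out a library, below 0 in 6 of 8 fits).

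Calls over all genes moved more than those of the members, and the cause was not tested. Inductants against naive gave 534 genes (limma 248 and 239, compared groups alone 340, leave-one-out 277 to 1221), deletion against naive 1637 (680 to 1819) and inductants against deletion 2344 (1115 to 2768). Inductant 1 gave 274 (DESeq2 480, limma 16 and 5, compared groups alone 109, leave-one-out 24 to 1048), inductant 2 gave 563 (limma 247 and 245, compared groups alone 231, leave-one-out 161 to 1023), and inductant 2 against inductant 1 gave 28 (upper quartile 12, DESeq2 175, limma 2 and 3, compared groups alone 113, leave-one-out 1 to 318). Upper-quartile scaling moved the higher share of calls from 44.5% to 54.5% in deletion against naive and from 10.7% to 25% between the inductions, and limma on TPM moved the former to 68.3%. Without naive replicate 2 that share went from 34.6% to 49.8% in the inductants, from 27.4% to 51.0% in inductant 1 and from 35.9% to 53.0% in inductant 2.

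For HXT1 to HXT7, inductant 1 gave 3 calls (limma 1 and 1, leave-one-out 1 to 4) and inductant 2 against inductant 1 gave 1 (DESeq2 2, limma 0 and 0, compared groups alone 2, leave-one-out 0 to 2), while the other comparisons stayed within 3 to 4, 6 to 7, 4 to 5 and 3 to 4 calls on leaving out a library. The sum of HXT6 and HXT7 between the inductions was -0.59 and -0.60 with limma (adjusted p = 0.134 both), and -0.61 to -0.47 with a library left out (adjusted p up to 0.341). HXT6 in the inductants passed with DESeq2 (adjusted p = 0.00124), limma (0.0378 and 0.0446) and the compared groups alone (0.000293). The summed pool lay at -0.49 to -0.37 with a library left out. The other pathway genes gave 11 calls in the inductants (limma 3 and 3, compared groups alone 6, leave-one-out 5 to 14) and 15 in vts1∆ (limma 9 and 9, leave-one-out 9 to 18), alternatives added after seeing the data. Among the genes beside the members, those that reversed were uncalled: MSR1, inductants against naive (-0.00279 with no filter, -0.00144 with a 50-count filter, -0.166 to 0.204 on leaving out a library) and CLU1 in the inductants (0.049 and 0.0492 with limma, -0.114 to 0.0713) and vts1∆ (-0.0135 to 0.184).

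With a replicate block, inductant 1 gave 422 genes, and inductant 2 against inductant 1 gave 140 genes and 2 members. It also added calls for HXT5 in vts1∆ and in inductant 2 (adjusted p = 0.0212 both), for HXT4 against vts1∆ (0.023) and for HXT4 between the inductions (0.0124), and took none from the members. The sample titles do not say whether replicate numbers pair the samples, so no conclusion is drawn from these added calls. HXT5, at 28.1 to 52.1 CPM, passed against naive without naive replicate 1 in the inductants (0.034), inductant 2 (0.0132) and vts1∆ (0.00921), so its calls rest on the naive pair.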
